A study of Homo sapiens with 9 samples.

Results

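Aminoacyl-tRNA synthetases were examined as a family in K562 cells that carried 1 of 3 forms of calreticulin (CALR). Members were taken by name, under current or former symbols, from the genes measured on the array. This gave 35 synthetase genes of 18239 genes in all, 19 for cytosolic enzymes and 16 for mitochondrial enzymes, whose symbols end in 2. For each gene the value is that of the probe set with exactly 1 gene symbol and the highest mean over the 9 arrays, on the log2 scale. K562 is an established human leukaemia line with erythroid features. Cells were transduced with a retroviral vector carrying CALR WT (the normal protein), CALR Del52 or CALR Ins5, frameshift mutants known from myeloproliferative neoplasms, and each form was represented by 3 arrays. All 3 groups had 4 infection cycles at intervals of 12 h and a further 36 h of culture, and were selected with an antibody to NGFR, a surface marker, to a purity above 90% when it was read 48 h later. Neither the promoter that drives the transgene nor the state of the cells' own CALR gene is stated in the labels, and WT cells also carried a vector with CALR. Nothing in the labels says that replicates came from separate cultures, so every p-value measures only the spread between these arrays, which may be technical.

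Each synthetase joins 1 kind of amino acid to its tRNA and so supplies the ribosome. The cytosolic and the mitochondrial enzymes are mostly products of separate nuclear genes, but GARS1 and KARS1 serve both compartments and were counted here as cytosolic. Several cytosolic enzymes sit in a multisynthetase complex, and others act as free enzymes. Many cytosolic synthetase genes are known targets of ATF4, a transcription factor made when stress kinases such as PERK (the product of EIF2AK3) phosphorylate the initiation factor eIF2, whereas mitochondrial ones are mostly not known as such. ATF4 binds C/EBP-ATF response elements together with C/EBP partners. The title of the study concerns the unfolded protein and oxidative stress responses, of which PERK and ATF4 form an arm.

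The promoters are shown first because all 7 cytosolic synthetase genes that carried a C/EBP-ATF element read lower in Del52 than in either other group, although none passed the test. Known targets with a window and no match (EPRS1, SARS1 and WARS1) also read lower in Del52 than in WT. The core TGATGNAA, or TTNCATCA on the opposite strand, was searched in windows of 300 bases around the RefSeq start, 250 before it and 50 from it on. No other motif was searched. Windows came from RefSeq on GRCh38.p14 and were found for 30 of the 35 members; AARS2, LARS1, VARS1, VARS2 and YARS1 have no entry. The element was present in 7 of 16 cytosolic genes with a window and in 1 of 14 mitochondrial genes, YARS2. Over all 35116 promoter windows, 3.62% held it, against 33.3% of the 21 cytosolic windows and 5.56% of the 18 mitochondrial windows. Of the 7 cytosolic genes, 6 carried the form TGATGCAA, which 0.866% of all windows held, and all 7 were among the 13 cytosolic genes listed as known ATF4 targets. A match is a description of letters and not evidence of a site in use. In the lines that follow, each promoter stretch is written 5′ to 3′ on the strand of its gene, and capitals mark the matched core. They cover AARS1 at chr16:70289680-70289739 (minus strand), CARS1 at chr11:3057412-3057471 (minus), GARS1 at chr7:30594799-30594858 (plus), IARS1 at chr9:92293697-92293756 (minus), MARS1 at chr12:57488018-57488077 (plus), NARS1 at chr18:57621809-57621868 (minus), TARS1 at chr5:33440921-33440980 (plus) and YARS2 at chr12:32756081-32756140 (minus).
AARS1: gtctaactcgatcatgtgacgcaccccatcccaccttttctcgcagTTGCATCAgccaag
CARS1: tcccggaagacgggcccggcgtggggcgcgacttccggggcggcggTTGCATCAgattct
GARS1: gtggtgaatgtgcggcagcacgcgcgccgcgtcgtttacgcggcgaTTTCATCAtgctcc
IARS1: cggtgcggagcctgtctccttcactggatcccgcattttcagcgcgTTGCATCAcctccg
MARS1: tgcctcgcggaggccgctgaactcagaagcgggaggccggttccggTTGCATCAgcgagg
NARS1: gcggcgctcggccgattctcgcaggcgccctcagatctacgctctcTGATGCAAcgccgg
TARS1: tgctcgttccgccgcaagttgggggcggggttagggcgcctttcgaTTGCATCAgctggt
YARS2: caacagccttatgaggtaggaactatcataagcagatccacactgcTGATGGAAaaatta

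The matched cores lay close to the start in most of the cytosolic genes. With the first base of the transcript counted as 1, the core ran from -4 to 4 in MARS1, from -2 to 6 in CARS1, from 3 to 10 in TARS1, from -13 to -6 in IARS1, from 15 to 22 in NARS1 and from -33 to -26 in GARS1. In AARS1 and YARS2 it lay farther upstream, from -187 to -180 and from -197 to -190. In 6 of the 7 cytosolic genes the core was read on the strand opposite to the gene, and in NARS1 on the same strand. In the list of 36 other genes of the ATF4 arm, 7 of 27 genes with a window held the element, in 16.3% of 43 windows.

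Before the comparisons, the arrays themselves have to be described, since some stood apart. The first principal component over all genes took 70.5% of the variance, and its ends were WT replicate 2 (score -0.57) and WT replicate 3 (score 0.57). Every other array scored between -0.30 and 0.30, yet all pairs of arrays correlated at 0.974 to 0.998. The 3′ minus 5′ difference of the actin control probe sets, a sign of RNA quality, was 1.08 in WT replicate 2, the lowest of 9 arrays, and 1.31 in WT replicate 3, within a range of 1.08 to 1.39. The 5′ probe set of 18S rRNA read 8.63 to 10.87, with its highest values in WT replicate 3 (10.87) and Del52 replicate 1 (10.80). The measured K562 markers were HBG1, HBE1, HBZ, TFRC, GATA1, KLF1, TAL1, LMO2, ABL1 and ALAS2, mostly erythroid genes. All 10 were above the span of the 23 antigenomic control probe sets, 1.53 to 6.52, which stand for background. Of the fibroblast and epithelial markers 6 of 9 lay inside that span, as did 5 of 5 lymphoid and 5 of 6 monocyte and granulocyte markers. CALR itself gave log2 differences of -0.15 (SE 0.14, adjusted p = 0.918) in Del52 and -0.16 (SE 0.14, adjusted p = 0.893) in Ins5 against WT with limma and Benjamini-Hochberg adjustment. NGFR, the marker used for selection, read 3.33 to 3.48 over the 9 arrays, within the antigenomic span. Whether these probe sets detect the vector was not tested, so the CALR values do not give the level of the transgene.

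No synthetase passed the test between any pair of groups, and neither did any other gene. With limma over all 9 arrays and Benjamini-Hochberg adjustment over 18239 genes, 0 of 35 members were called at an adjusted p under 0.05 in Del52 minus WT, in Ins5 minus WT and in Del52 minus Ins5, and the share of all genes called was 0% each time. At an unadjusted p under 0.05, 3 members stood out in Del52 minus WT (FARSA, PARS2 and LARS2), where 7.05% of all genes did. In Ins5 minus WT 1 member did (EPRS1), where 7.41% of all genes did, and in Del52 minus Ins5 1 member did (AARS1), where 5.77% of all genes did. The F test over the 3 groups called 0 members and 0% of all genes, with the smallest value for FARSA (unadjusted p = 0.0240, adjusted p = 0.676). At an unadjusted p under 0.05 it picked out FARSA and PARS2, against 7.23% of all genes. In bulk RNA a change in the share of cells and a change in RNA per cell cannot be told apart.

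**Figure D1:**
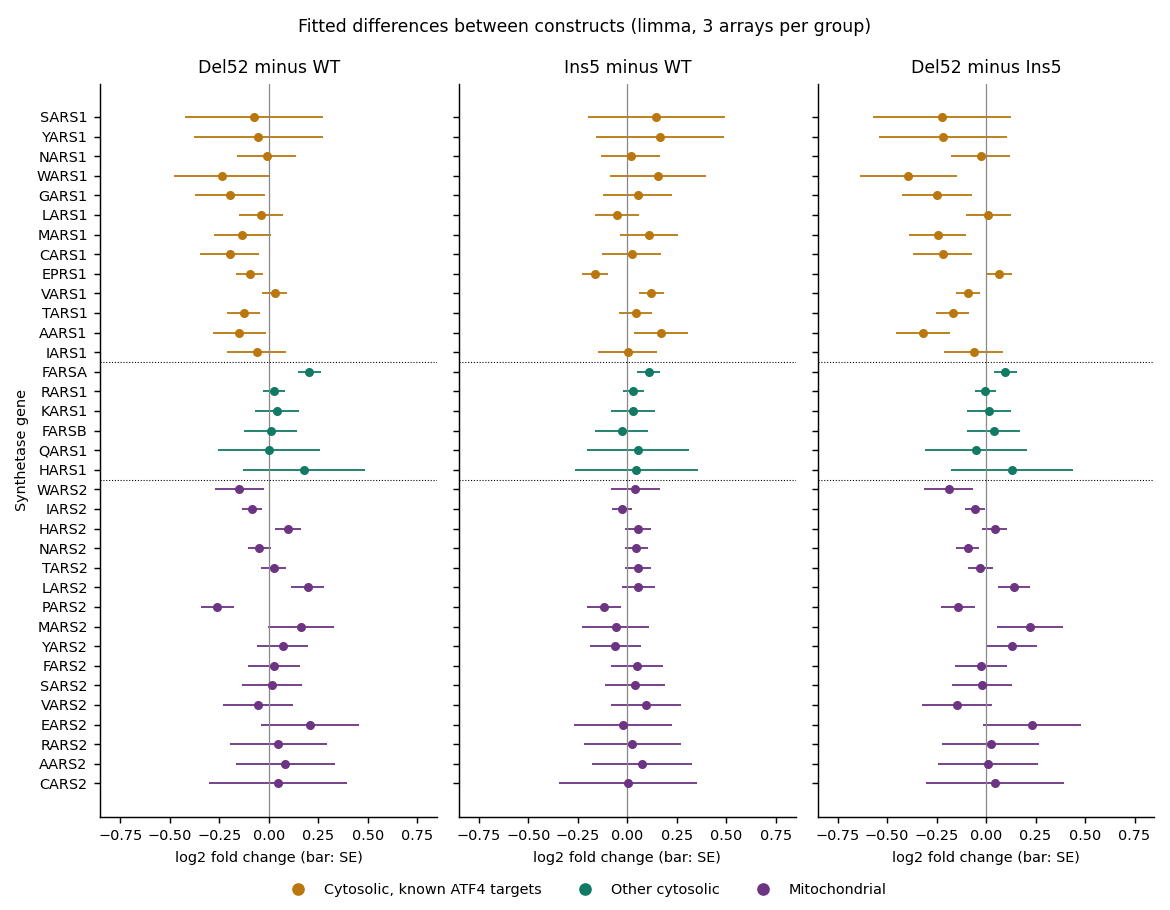
Fitted log2 fold changes of the 35 synthetase genes (points) with their standard errors (bars) in the 3 comparisons of constructs, 3 arrays per group, by class. Bars are widest for SARS1, CARS2, YARS1 and HARS1, and FARSA and PARS2 lie farthest from 0 relative to their bars in Del52 minus WT.

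The cytosolic enzymes as a class read slightly lower in Del52 than in WT. The median log2 fold change was -0.05 over 19 genes, 12 of them lower, against a median of 0.04 over the 16 mitochondrial genes, 5 of them lower, and 0.01 over all genes, of which 8281 were lower. In Ins5 minus WT both classes had positive medians, 0.05 with 3 of 19 lower and 0.04 with 5 of 16 lower, against 0.02 over all genes. In Del52 minus Ins5 the cytosolic median was -0.06 with 13 of 19 lower, the mitochondrial median was -0.01 with 8 of 16 lower, and that of all genes was -0.01. The Del52 and Ins5 comparisons share the WT arrays. Without WT replicates 2 and 3 the medians against WT were -0.07 (cytosolic) and 0.04 (mitochondrial) for Del52, and 0.03 and 0.01 for Ins5. The cytosolic median in Del52 minus WT was -0.01 without Del52 replicate 1, with 10 of 19 lower, and -0.14 without WT replicate 2, with 11 lower. The mitochondrial medians turned on single arrays, WT and mutant. In Del52 minus WT the mitochondrial value was 0.15 without WT replicate 2, -0.10 without WT replicate 3, with 13 of 16 genes lower, and -0.05 without Del52 replicate 3, with 11 lower. In Ins5 minus WT it was 0.11 without WT replicate 2, -0.08 without WT replicate 3 and -0.04 without Ins5 replicate 3, and with array weights it was -0.02. In Del52 minus Ins5 it ran from -0.08 without Del52 replicate 3 to 0.07 without Del52 replicate 2.

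Within the cytosol, the genes listed as known ATF4 targets and the others were counted apart. The list of known targets holds AARS1, CARS1, EPRS1, GARS1, IARS1, LARS1, MARS1, NARS1, SARS1, TARS1, VARS1, WARS1 and YARS1. It was chosen with earlier results of these data known, so the counts by list are a description only. Of the 13 known targets, 12 were lower in Del52 than in WT (median -0.10), 11 were higher in Ins5 than in WT (median 0.05), and 11 were lower in Del52 than in Ins5 (median -0.22). The exception in Del52 minus WT was VARS1, and those in each of the other comparisons were EPRS1 and LARS1. Of the other 6, FARSA, FARSB, HARS1, KARS1, QARS1 and RARS1, none was lower in Del52 than in WT (median 0.03), although 2 of them were once each array was centred on its median. Between Ins5 and WT these 6 had nearly the same median as the known targets, 0.04 with 5 of 6 higher, and in Del52 minus Ins5 they had 0.03 with 2 of 6 lower. The known-target counts in Del52 minus WT and Del52 minus Ins5 were 12 and 11 of 13 under quantile normalization and median centring too. No member of either list passed the test, and the difference between the lists was not tested.

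The lower values of the known targets in Del52 depended on single arrays. Without Del52 replicate 1, 8 of 13 known targets were lower in Del52 than in WT and the median was -0.01, while it was -0.21 without Del52 replicate 2 and -0.16 without Del52 replicate 3. In Del52 minus Ins5 the median was then -0.08, with 10 of 13 lower, and without Ins5 replicate 1 it was -0.11, with 10 lower. Without WT replicate 3 the Del52 minus WT median was -0.07 with 8 lower, and without WT replicate 2 it was -0.16. In Ins5 minus WT the sign itself turned: the median was -0.02 without Ins5 replicate 1, -0.06 without WT replicate 2, 0.13 without WT replicate 3, 0.10 without WT replicate 1 and 0.15 without Ins5 replicate 3. Without WT replicates 2 and 3 together it was -0.16 for Del52 minus WT, with 12 of 13 lower, while in Ins5 minus WT 7 of 13 were lower. For the other 6 cytosolic genes the Del52 minus WT median was 0.18 without WT replicate 2 and -0.07 without WT replicate 3, with 5 of 6 then lower.

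**Figure D2:**
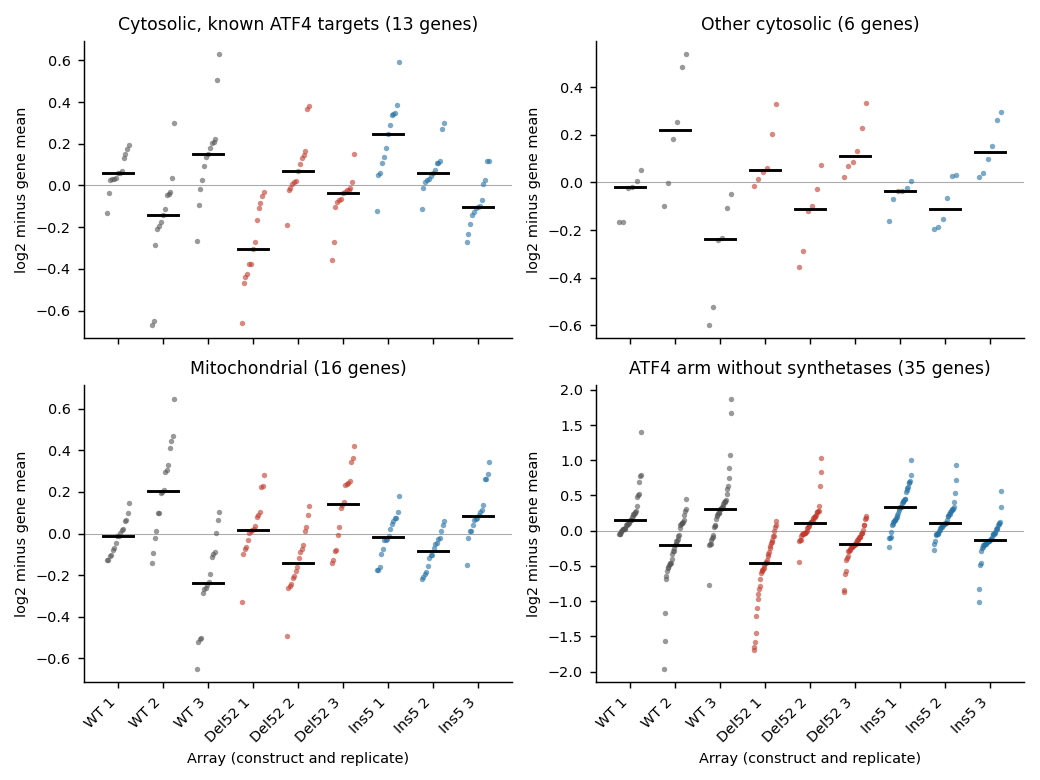
Each point is 1 gene on 1 array, as the log2 value minus that gene's mean over the 9 arrays, and the bars are medians, for known ATF4 targets among cytosolic synthetases, other cytosolic synthetases, mitochondrial synthetases and the ATF4 arm without synthetases. Known targets lie lowest on Del52 replicate 1 (median -0.30) and highest on Ins5 replicate 1 (median 0.24), while mitochondrial genes are lowest on WT replicate 3 (-0.24) and highest on WT replicate 2 (0.20). The vertical scales differ between panels.

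Array by array, the known targets read high or low together. Of the 13, 0 were above their own mean on Del52 replicate 1, 10 on replicate 2 and 2 on replicate 3. On the Ins5 arrays 12, 11 and 4 were above it, and on the WT arrays 11, 2 and 10. Del52 replicate 1 held the lowest of the 9 values for 6 of these genes and WT replicate 2 for 4, while Ins5 replicate 1 held the highest for 7 and WT replicate 3 for 4. The rest of the ATF4 arm, 35 measured genes, had its medians in the same places: -0.46 on Del52 replicate 1, 0.33 on Ins5 replicate 1, -0.20 on WT replicate 2 and 0.30 on WT replicate 3. The K562 markers named above, mostly erythroid genes, moved beside these values. All 10 measured were above their own means on Del52 replicate 1 (median 0.17), 9 of 10 were higher in Del52 than in WT (median 0.11), and 9 of 10 were lower on Ins5 replicate 1 than on Del52 replicate 1 (median -0.25). Their Del52 minus WT values ran from -0.02 in TAL1 to 0.21 in KLF1, with ABL1 at only 0.003 and HBG1 at 0.02. The part of these markers, and of the control values given above, in the values of the known targets was not tested.

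Mitochondrial synthetases had another order of arrays. Of the 16, 13 were above their mean on WT replicate 2 and 3 on WT replicate 3, where 12 of the 16 had their lowest value of all. Over all genes, WT replicate 3 held the lowest value for 4433 of 18239, more than any other array, and WT replicate 2 held the lowest for 3678 and the highest for 3711. In Del52, 11, 4 and 11 of 16 were above their mean on the 3 arrays, and in Ins5 7, 3 and 14. The other 6 cytosolic genes followed a like order, with medians of 0.22 on WT replicate 2 and -0.24 on WT replicate 3. The span from lowest to highest array median was about as wide for mitochondrial genes, -0.24 to 0.20, as for known targets, -0.30 to 0.24.

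**Figure D3:**
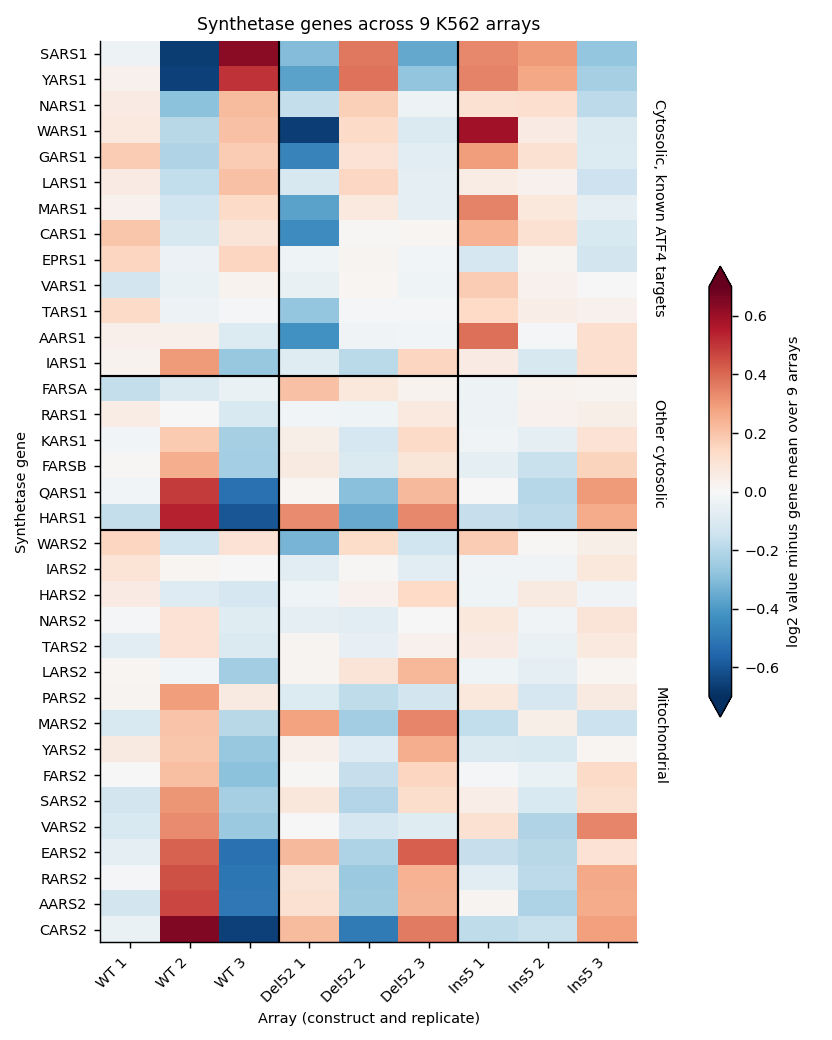
Log2 value minus the gene's mean over 9 arrays (colour, limited at ±0.7) for the 35 synthetase genes in rows and the arrays in columns, by class and construct. SARS1 and YARS1 are high on WT replicate 3 and low on WT replicate 2, and CARS2, HARS1, QARS1, AARS2, RARS2 and EARS2 show the opposite.

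Between the extreme WT arrays, which carried the same construct, single members differed by up to 1.30. Fitted differences between constructs reached 0.39 in size, but they compare means of 3 arrays and so vary less. Between single arrays of different constructs, WARS1 differed by 1.25 in Ins5 replicate 1 minus Del52 replicate 1. In WT replicate 3 minus WT replicate 2, with 1 array each and so no test, 11 of 13 known targets were higher (median 0.27), 1 of 6 other cytosolic genes was (median -0.45), and 1 of 16 mitochondrial genes was (median -0.43). Over all genes 44.3% were higher, with a median of -0.03, and in the ATF4 arm 27 of 35 were higher with a median of 0.54. SARS1, the seryl-tRNA synthetase, had a difference of 1.30, YARS1 (tyrosine) 1.16 and NARS1 (asparagine) 0.51. At the other end lay CARS2 (mitochondrial cysteine) with -1.30, HARS1 (histidine) with -1.14, QARS1 (glutamine) with -1.01, AARS2 with -0.97, RARS2 with -0.95 and EARS2 with -0.93. The known targets that went against their list were IARS1 (-0.57) and AARS1 (-0.13), and the only mitochondrial gene higher on replicate 3 was WARS2 (0.24).

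Between the mutants, the known targets had their lowest array median on Del52 replicate 1 and their highest on Ins5 replicate 1. These arrays were set side by side for that reason, so the values of the known targets in the difference follow from the choice and are a description only. In Ins5 replicate 1 minus Del52 replicate 1, 12 of 13 known targets were higher with a median of 0.64, where EPRS1 was the exception. WARS1, the tryptophanyl-tRNA synthetase, differed by 1.25, AARS1 by 0.81, GARS1 by 0.76, and MARS1 and YARS1 by 0.72 each. None of the other 6 cytosolic genes was higher (median -0.10), and of the mitochondrial genes 6 were higher and 9 lower (median -0.03). WARS2 was again the mitochondrial gene with the largest positive difference, 0.51. In the ATF4 arm 30 of 35 genes were higher with a median of 0.81, and the median over all genes was 0.00. Del52 replicate 1 and Ins5 replicate 1 lay near the middle of the first principal component, at -0.11 and 0.06, but had 18S 5′ values of 10.80 and 9.46, and the part of that in the difference was not tested.

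Spread over arrays set what could be seen. The median range over the 9 arrays was 0.52 for the 35 members, against 0.32 over all genes, and the median SD within groups was 0.18 against 0.10. A range of at least 1 was found in 6 of 35 members, SARS1, CARS2, WARS1, YARS1, HARS1 and QARS1, and in 7.05% of all genes. The steadiest members were RARS1 (arginine) and IARS2 (mitochondrial isoleucine), with ranges of 0.17 each. All 19 cytosolic genes had means above the antigenomic span, but 12 of 16 mitochondrial genes lay within it, as did 13729 of 18239 genes. The 4 outside were FARS2, IARS2, NARS2 and RARS2. The number of arrays limits the precision: for HARS1 the 95% interval of Del52 minus WT ran from -0.54 to 0.89.

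Among the cytosolic enzymes FARSA, the alpha subunit of phenylalanyl-tRNA synthetase, came closest to a difference between constructs. It read 6.93, 6.99 and 7.05 on the 3 WT arrays, 7.30, 7.16 and 7.12 on the Del52 arrays and 7.05, 7.12 and 7.11 on the Ins5 arrays. All Del52 values lay above all WT values, and the Ins5 values did so too, the closest pair differing only in the third decimal. Groups without overlap and higher were found for 2 of 35 members in Del52 minus WT (6.23% of all genes) and for 1 of 35 in Ins5 minus WT (8.16% of all genes). Lower without overlap in Ins5 minus WT were 0 of 35 members, against 3.3% of all genes. FARSA was 0.20 higher in Del52 than in WT (SE 0.06, 95% interval 0.07 to 0.34, unadjusted p = 0.0080, limma adjusted p = 0.603), and the value was 0.27 without WT replicates 2 and 3. In Ins5 minus WT it was 0.11 (SE 0.06, adjusted p = 0.750). FARSB, the beta subunit of the same enzyme, gave 0.01 (SE 0.13) in Del52 minus WT, and FARSA is covered by a single usable probe set.

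With the probe sets used, AARS1, the alanyl-tRNA synthetase, had the smallest p of all members in Del52 minus Ins5. Its values were 7.56, 7.96 and 7.96 in Del52, 8.37, 7.97 and 8.10 in Ins5, and 8.02, 8.02 and 7.89 in WT. Both mutants contained 1 extreme array, and beyond those the Del52 and Ins5 values almost touched at 7.96 and 7.97. The difference was -0.32 (SE 0.14, unadjusted p = 0.0480, limma adjusted p = 0.860). It was -0.18 without Del52 replicate 1 and -0.21 without Ins5 replicate 1. A second AARS1 probe set gave -0.26.

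TARS1, the threonyl-tRNA synthetase, was the other member below Ins5 on every Del52 array. It read 9.59, 9.85 and 9.84 in Del52, 9.996, 9.90 and 9.89 in Ins5, and 9.99, 9.82 and 9.84 in WT. In this comparison 2 of 35 members were lower without overlap (6.28% of all genes) and 1 was higher (3.81% of all genes), so 3 of 35 members had separate groups against 10.1% of all genes. Del52 minus Ins5 was -0.17 (SE 0.08, limma adjusted p = 0.910), and -0.08 without Del52 replicate 1. The other TARS1 probe sets gave -0.11 and -0.09 there. Del52 minus WT was -0.13 (SE 0.08, adjusted p = 0.842), and -0.23 without WT replicates 2 and 3.

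MARS1, the methionyl-tRNA synthetase of the multisynthetase complex, read 8.76, 9.20 and 9.07 in Del52, 9.48, 9.21 and 9.07 in Ins5, and 9.16, 8.99 and 9.27 in WT. Del52 replicate 1 was the lowest and Ins5 replicate 1 the highest, and all groups overlapped. Del52 minus Ins5 was -0.24 (SE 0.14, limma adjusted p = 0.952), and -0.12 without Del52 replicate 1. The 4 other probe sets gave -0.07, -0.21, -0.23 and -0.39.

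EPRS1, the fused glutamyl- and prolyl-tRNA synthetase, read lower in both mutants than in WT, unlike most known targets in Ins5. Its WT values were 9.62, 9.43 and 9.62, its Del52 values 9.44, 9.49 and 9.45, and its Ins5 values 9.35, 9.49 and 9.34. WT replicate 2 lay among the mutants, so the groups overlapped. Ins5 minus WT was -0.16 (SE 0.07, unadjusted p = 0.0402, limma adjusted p = 0.651) and Del52 minus WT was -0.10 (SE 0.07, adjusted p = 0.855). Without WT replicates 2 and 3 these were -0.23 and -0.16. The other EPRS1 probe set gave -0.09 and -0.14, and in Del52 minus Ins5 it gave -0.05 where the one used gave 0.07.

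VARS1, the valyl-tRNA synthetase, read 7.56, 7.64 and 7.71 in WT, 7.64, 7.70 and 7.66 in Del52, and 7.87, 7.72 and 7.69 in Ins5. It was the 1 known target above WT in Del52, and its groups overlapped. Ins5 minus WT was 0.12 (SE 0.06, limma adjusted p = 0.728), 0.20 without WT replicates 2 and 3, and the 3 dimmer probe sets of the gene gave 0.08, 0.14 and 0.00.

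**Figure D4:**
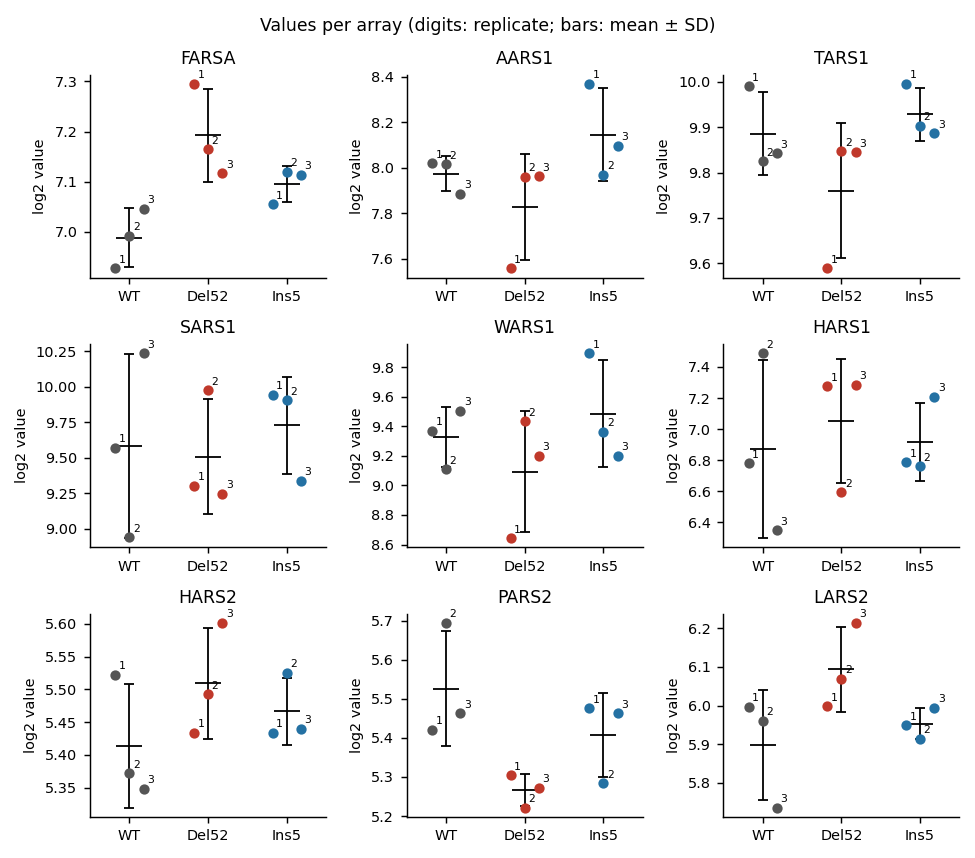
Log2 values on each array (points, with the replicate number beside them) for 9 synthetase genes, with group means and SD (bars, n = 3 per group). Del52 lies wholly above WT in FARSA and wholly below it in PARS2, while SARS1 and HARS1 spread across more than 1 log2 unit within WT.

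Among the known targets not yet described, the Del52 minus Ins5 values were -0.39 (SE 0.24) for WARS1, -0.25 (SE 0.17) for GARS1, -0.22 (SE 0.15) for CARS1 (cysteine), -0.22 (SE 0.35) for SARS1 and -0.22 (SE 0.32) for YARS1. None exceeded its error by enough to pass. NARS1, IARS1 (isoleucine) and LARS1 (leucine) gave values between -0.06 and 0.01. WARS1, the enzyme also known to be induced by interferon, had its lowest value on Del52 replicate 1 (8.64) and its highest on Ins5 replicate 1 (9.89), with the other 7 arrays between 9.11 and 9.51. Against WT, the Del52 values were -0.24 for WARS1, -0.20 for GARS1 and -0.20 for CARS1, with adjusted p-values of 0.934, 0.909 and 0.880.

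By assembly, the 12 free cytosolic enzymes had Del52 minus Ins5 values with a median of -0.19, 9 of them lower, and the 7 members of the multisynthetase complex, EPRS1, IARS1, LARS1, MARS1, QARS1, RARS1 and KARS1, a median of -0.00, 4 of them lower. In Del52 minus WT the medians were -0.06 (8 of 12 lower) and -0.04 (4 of 7 lower). No member of either group passed, and the lists share no gene. All known ATF4 targets except EPRS1, IARS1, LARS1 and MARS1 are free enzymes, so this split overlaps that by known target. The part of assembly apart from that list was not tested. The array median of the free enzymes was -0.29 on Del52 replicate 1 and 0.21 on Ins5 replicate 1, against -0.03 and 0.00 for the complex. AIMP1, a scaffold protein of the complex, gave 0.06 (SE 0.04, limma adjusted p = 0.859) in Del52 minus WT and 0.01 in Ins5 minus WT. The dual-compartment enzymes parted, with GARS1 at -0.20 and KARS1 at 0.04 in Del52 minus WT. The cytosolic median of -0.05 was the same to 2 decimals without both.

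Among the mitochondrial enzymes PARS2, the prolyl-tRNA synthetase, read lower in Del52. Its values were 5.42, 5.69 and 5.46 in WT, 5.30, 5.22 and 5.27 in Del52 and 5.48, 5.28 and 5.46 in Ins5. Every Del52 value was below every WT value, and 1 Ins5 value lay among those of Del52. PARS2 was the 1 of 35 members lower without overlap in Del52 minus WT, as were 4.36% of all genes. The difference was -0.26 (SE 0.08, unadjusted p = 0.0150, limma adjusted p = 0.609), and -0.15 without WT replicates 2 and 3. Its mean, 5.40, lies within the antigenomic span, and the other PARS2 probe set, at a mean of 3.55, gave -0.02.

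LARS2, the mitochondrial leucyl-tRNA synthetase, read higher in Del52. It was 5.997, 5.96 and 5.74 in WT, 5.999, 6.07 and 6.21 in Del52 and 5.95, 5.91 and 5.99 in Ins5. The Del52 arrays were above both other groups, although the lowest of them and the highest WT array differed only in the third decimal. Del52 minus WT was 0.20 (SE 0.08, unadjusted p = 0.0456, limma adjusted p = 0.693), and 0.10 without WT replicates 2 and 3. Del52 minus Ins5 was 0.14 (SE 0.08, adjusted p = 0.952). This gene has a single usable probe set and also lies within the antigenomic span.

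The remaining mitochondrial genes with the smallest p-values differed little. IARS2 read 8.82, 8.74 and 8.73 in WT, 8.65, 8.73 and 8.65 in Del52 and 8.70, 8.70 and 8.80 in Ins5, with a Del52 minus WT value of -0.08 (SE 0.05, limma adjusted p = 0.813). NARS2 read 7.12, 7.23 and 7.04 in WT, 7.06, 7.06 and 7.12 in Del52 and 7.20, 7.10 and 7.22 in Ins5, with a Del52 minus Ins5 value of -0.09 (SE 0.06, adjusted p = 0.968). These are the mitochondrial isoleucyl and asparaginyl enzymes, and in both genes the groups overlapped. TARS2 (threonine) read 5.95, 6.13 and 5.93 in WT, 6.05, 5.97 and 6.06 in Del52 and 6.09, 5.98 and 6.10 in Ins5. Its Ins5 minus WT value was 0.05 (SE 0.06, adjusted p = 0.962), and the mean of all its probe sets gave -0.05. The groups of TARS2 overlapped as well. Among the mitochondrial genes not given by array, Del52 minus WT ranged from -0.15 in WARS2 to 0.21 in EARS2. MARS2 (mitochondrial methionine) gave 0.22 (SE 0.17) in Del52 minus Ins5, and its dimmer probe sets gave 0.33 and 0.30. With limma over all probe sets of 1 symbol, these dimmer ones had unadjusted p = 0.026 and 0.0091 (adjusted p = 0.781 and 0.772). The MARS2 probe set means, 6.01, 5.35 and 4.77, lie within the antigenomic span.

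HARS1 and HARS2 encode the cytosolic and mitochondrial histidyl-tRNA synthetases from neighbouring genes that start back to back. RefSeq places 84 bases between their starts, at chr5:140691371-140691454 on GRCh38.p14. That stretch is shown because the paired genes differed sharply in how much they varied, and it is written on the plus strand, from the HARS1 side to the HARS2 side, with no part in capitals.
HARS1 to HARS2: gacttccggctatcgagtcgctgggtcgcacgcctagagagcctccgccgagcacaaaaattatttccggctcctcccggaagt

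Over the 9 arrays the values of HARS1 ranged over 1.14 and those of HARS2 over 0.25. HARS2 read 5.52, 5.37 and 5.35 in WT, 5.43, 5.49 and 5.60 in Del52 and 5.43, 5.53 and 5.44 in Ins5, so all groups overlapped. HARS1 was highest on WT replicate 2 and lowest on WT replicate 3, and its 2 other probe sets differed between these arrays by -1.44 and -1.15. HARS2 differed by -0.02 there, and its other probe set by 0.30. HARS2 lies within the antigenomic span and HARS1 above it, and the part of background in the difference was not tested. In Del52 minus WT HARS1 gave 0.18 (SE 0.31) and HARS2 0.10 (SE 0.07), and in Ins5 minus WT both gave 0.05, although for HARS2 the sign turned without WT replicates 2 and 3 (-0.06).

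Split by the promoter element, the 7 cytosolic genes that held it were all lower in Del52 than in WT, from -0.20 to -0.01 with a median of -0.13. All 7 were also lower in Del52 than in Ins5, from -0.32 to -0.03 with a median of -0.22. The 9 cytosolic genes with a window and no match had medians of 0.01 in both comparisons, with 3 and 4 of them lower. Without WT replicate 3 the first of these was -0.07 with 7 of 9 lower, and without WT replicate 2 it was 0.13. The 3 of the 9 lower in Del52 than in WT were EPRS1 (-0.10), SARS1 (-0.07) and WARS1 (-0.24), all listed as known targets. The 6 that were higher were the cytosolic genes off that list. WARS1 also had the lowest Del52 minus Ins5 value of all members, -0.39. The part of the element apart from the known-target list was not tested. Without Del52 replicate 1 the medians of the 7 were -0.04 against WT and -0.08 against Ins5, and 6 of 7 were lower in each. Without Del52 replicate 2 the median against WT was -0.21. In Ins5 minus WT all 7 were higher, with a median of 0.04, which became -0.02 without Ins5 replicate 1, and of the 9 without a match 7 were higher, with a median of 0.05. The signs of the 7 there depended on the probe set. In GARS1, IARS1, MARS1, NARS1 and TARS1 another probe set gave a value below 0, the lowest -0.04 in NARS1, while AARS1 and CARS1 had none. YARS2 gave 0.07 in Del52 minus WT and 0.13 in Del52 minus Ins5, and the 13 mitochondrial genes without a match had medians of 0.02 and -0.02. None of these genes passed the test, and the difference between the sets was not tested.

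**Figure D5:**
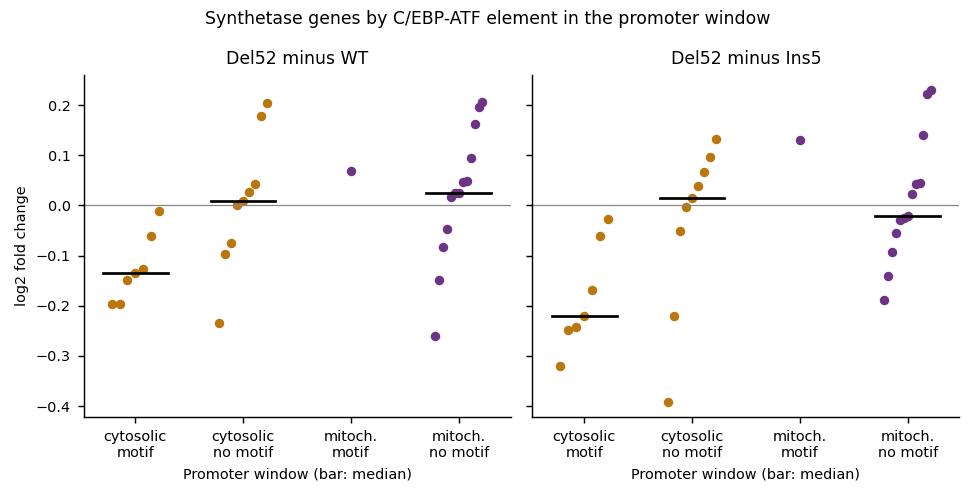
Fitted log2 fold changes of the 30 synthetase genes with a RefSeq promoter window, by compartment and by whether the window held the core TGATGNAA (points, 1 gene each, and bars for medians), in Del52 minus WT and Del52 minus Ins5. All 7 cytosolic genes with the core lie below 0 in both panels, and the 1 mitochondrial gene with it, YARS2, lies above 0. Of the cytosolic genes without it, EPRS1, SARS1 and WARS1, all known targets, lie below 0 in Del52 minus WT.

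The difference between the extreme WT arrays was counted by the element too. In WT replicate 3 minus WT replicate 2, 5 of the 7 genes with it were higher and 2 lower, AARS1 and IARS1, and of the 9 without a match 4 were higher and 5 lower. SARS1 and YARS1, which had the largest positive differences there, had no match and no window respectively.

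The rest of the ATF4 arm gives the setting for these values, from a list of 36 genes of which 35 were measured. In Del52 minus WT 32 of 35 were lower with a median of -0.23, in Ins5 minus WT 15 were lower with a median of 0.03, and in Del52 minus Ins5 31 were lower with a median of -0.33, and none passed. These medians too turned on single arrays. Without Del52 replicate 1 the Del52 minus WT median was -0.07 with 24 of 35 lower, without WT replicate 3 it was -0.12 and without WT replicate 2 it was -0.43. The Ins5 minus WT median was -0.07 without Ins5 replicate 1 and -0.11 without WT replicate 2. The Del52 minus Ins5 median was -0.17 without Del52 replicate 1 and -0.21 without Ins5 replicate 1. ATF4 itself gave -0.20 (SE 0.09, limma adjusted p = 0.743) in Del52 minus WT. EIF2AK3 had the smallest p of the list against WT, with -0.35 (SE 0.07, adjusted p = 0.603) in Del52 and -0.19 (SE 0.07, adjusted p = 0.640) in Ins5, and neither mutant overlapped WT. DDIT3, which encodes the stress factor CHOP, gave -0.35 (SE 0.17, adjusted p = 0.745) in Del52 minus WT. The means of EIF2AK3 (5.88) and DDIT3 (6.41) lie within the antigenomic span, as do those of 9 of the 35 genes in all. ASNS, the asparagine synthetase and a classical ATF4 target, gave -0.25 (SE 0.24) against WT and -0.33 (SE 0.24) against Ins5. In Del52 minus Ins5 the smallest p belonged to CEBPB, a C/EBP factor, with -0.36 (SE 0.15, adjusted p = 0.860).

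Other genes of tRNA charging and of elongation were counted in the same way. Of 10 measured genes that charge, edit or export tRNA, 5 were lower in Del52 than in WT (median 0.03), and none passed. SEPSECS, which makes selenocysteine on its tRNA, gave -0.62 (SE 0.37, limma adjusted p = 0.813) in Del52 minus WT. Its mean, 5.45, lies within the antigenomic span. DTD1, a D-aminoacyl-tRNA deacylase, was 0.14 higher in Ins5 than in WT and 0.14 higher in Ins5 than in Del52 (SE 0.05, adjusted p = 0.601 and 0.841), without overlap in either. The 5 cytosolic elongation factor genes had a Del52 minus WT median of -0.03, with -0.05 (SE 0.04, adjusted p = 0.876) for EEF1A1, which delivers charged tRNA to the ribosome. The 8 mitochondrial translation factors had a median of 0.02, and MTIF2, a mitochondrial initiation factor, gave -0.17 (SE 0.14, adjusted p = 0.903). None of these genes passed.

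Where a synthetase gene had several probe sets, their signs were compared. Of the 35 members, 27 had more than 1 usable probe set, which gave 53 others beside those used. For WT replicate 3 minus WT replicate 2, 50 of the 53 had the sign of the probe set used, and all 25 of those above the antigenomic span did. The counts were 45 of 53 for Del52 minus WT, 34 of 53 for Del52 minus Ins5 and 30 of 53 for Ins5 minus WT. Above the antigenomic span they were, in that order, 22, 17 and 12 of 25. Probe sets of 1 gene share the RNA of each array, so these counts describe the probes and add no replicate.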

How the data were processed

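In all, 9 K562 samples were measured on Affymetrix arrays, 3 each for CALR WT, Del52 and Ins5, from RNA of 100000 cells each. The deposited values are the authors' log2 expression values per probe set; per the submitters' processing notes Partek and RMA were used, the latter a method of background correction, between-array normalization and probe summary, in versions not given in the sources used here. From the values, whose maximum was 12.2, the log base was read as 2. Array medians were 3.73 to 3.76. Arrays have no read depth, so their number limits the precision.

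Of 49386 probe sets, 93 controls were left out. In the platform annotation 45253 had 1 gene symbol, 1327 several and 2713 none. Of those with 1, 45172 matched RefSeq (GRCh38.p14) by gene identifier and 0 symbols changed. The brightest probe set stood for each of 18239 genes.

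All 9 arrays entered 1 limma fit (3.58.1, R 4.3.3) with a mean per group, moderated variances and 6 residual degrees of freedom. Tests were two-sided, with Benjamini-Hochberg adjustment over all genes and a threshold of 0.05. The script was tested on simulated data. Lists and motif counts carry no test. Sequences were read in Python 3.11.15.

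Members, lists, tests and alternatives were chosen with earlier results of these data known. Values by array are given for members whose groups did not overlap and for the 3 cytosolic and 3 mitochondrial members with the smallest p per comparison. Of other genes, CALR, ATF4, EIF2AK3, DDIT3, ASNS and the member with the smallest p of a list are named. Other members, NGFR and the K562 markers are named after their values were seen. Alternatives covered normalization, filter, probe set, variance model, replicate block, principal component and each array left out. The list medians by setting, and the fit without WT replicates 2 and 3 (the 1 WT array left is assumed to vary like the others), were added after seeing the data.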

Additional observations from a re-analysis of the deposited data

How the results depend on the processing

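No synthetase and no gene was called under any alternative except array weights and the principal component. Array weights, whose estimation did not converge, gave WT replicate 1 a weight of 67.0 and every other array at most 1.82. They called 3190 genes (17.5%) in Del52 minus WT and 4017 (22%) in Ins5 minus WT, including 7 and 5 synthetases. The F test with array weights called 8 synthetases. The share of all genes that it called was not counted, so those 8 cannot be set against a background. In Del52 minus Ins5 array weights called 0. The cytosolic medians were then -0.12 in Del52 minus WT and -0.12 in Del52 minus Ins5. With the first principal component as a covariate, 4 genes (Del52 minus WT) and 7 genes (Ins5 minus WT) were called, none a synthetase.

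Leaving out each array in turn, the cytosolic median ranged from -0.14 to -0.0084 in Del52 minus WT, from 0.0089 to 0.10 in Ins5 minus WT and from -0.13 to -0.043 in Del52 minus Ins5. Signs turned for some small Ins5 minus WT values. With array weights PARS2 gave 0.011 and HARS2 -0.067. TARS2 gave -0.054 with the mean of all probe sets and -0.16 with a single other probe set, and HARS2 gave -0.026 with its other probe set and -0.056 without WT replicates 2 and 3. In Del52 minus Ins5 the other PARS2 probe set gave 0.028. The cause was not tested.

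Replicate numbers did not pair WT arrays with mutant arrays: deviations of same-numbered arrays correlated at -0.60, -0.92 and -0.87 in Del52 and WT. In Ins5 and WT they correlated at -0.33, -0.89 and -0.90. In Del52 and Ins5 they correlated at -0.56, 0.64 and 0.57, so mutant replicates 2 and 3 were alike by number. On the first principal component WT replicate 3, Del52 replicate 2 and Ins5 replicate 2 scored 0.57, 0.30 and 0.27. WT replicate 2, Del52 replicate 3 and Ins5 replicate 3 scored -0.57, -0.27 and -0.30. The source of this likeness across constructs was not tested. The replicate block called 0 synthetases and 0 genes in each comparison.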
